A study of Mus musculus with 6 samples.

Results

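Selenoproteins are the enzymes and carriers that hold selenocysteine, and they depend on a dedicated set of genes that makes this amino acid and places it into protein. The 32 genes described here were chosen by name from the 54532 genes of the deposited table. All 32 were found there, and 24 of them carry an annotated selenocysteine codon in GENCODE M21. The other 8 serve synthesis, insertion or selenium supply, and Sephs2 belongs to both classes because it is itself a selenoprotein. Gpx4, the selenoprotein that restrains ferroptosis (cell death through peroxidised membrane lipids), is set against the other selenoproteins and against the machinery.

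The samples are bulk RNA-seq libraries of wild-type (WT) mouse ovarian granulosa cells, the cells that nourish the oocyte, grown in DMEM/F12 medium with fetal bovine serum. Cyclophosphamide cells (3 libraries) received the alkylating drug cyclophosphamide for 24 h after 2 days of adherent culture. Untreated cells (3 libraries) had 2 days of adherent culture and no drug. Whether they were kept for a further 24 h or given vehicle is not known here. Time in culture may therefore differ between the groups. The treatment label of the first group reads intraperitoneal injection, while the treatment protocol and design text describe addition to cultured cells. The drug's dose, the cells' origin and whether the replicates were separate cultures were not stated in the labels, so p-values measure the spread between these libraries, which may be technical. Cyclophosphamide is known to need activation, mainly by liver enzymes.

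Each library held 16458385 to 17607586 reads, recovered from the deposited FPKM (reads scaled for gene length and library size). Of 12 granulosa markers 10 were tested, and their summed level was 1060 to 1360 FPKM in cyclophosphamide cells and 2760 to 2910 FPKM in untreated cells. Of the 10, 1 rose and 8 fell. Over all genes tested 33.3% rose and 36.0% fell, and these shares stand beside the counts of other markers below too. Inha and Foxl2 were expressed and both fell, by 1.14 (SE 0.19) and 0.45 (SE 0.07) on the log2 scale. Cyp19a1 (aromatase) had 1 read in cyclophosphamide and 3 reads in untreated libraries, and Amh had 22 and 16. Markers of other cell types summed to 49.8 to 73.1 FPKM in cyclophosphamide and 106 to 119 FPKM in untreated cells for surface epithelium, and to 7.92 to 9.40 FPKM and 25.1 to 31.0 FPKM for theca and stroma, with 4 of 5 and 2 of 4 tested markers lower. Immune markers summed to 8.86 to 11.0 FPKM in cyclophosphamide and 5.63 to 6.52 FPKM in untreated cells, and of 8 immune markers 3 were tested. Csf1r, a macrophage growth factor receptor, had 1271 reads in cyclophosphamide and 310 reads in untreated libraries and rose by 1.93 ± 0.11 on the log2 scale, Cd68 had 222 and 100 reads and rose by 1.08 ± 0.14, and Lyz2 fell. Ptprc, the common leukocyte marker, had 7 reads in cyclophosphamide and 9 reads in untreated libraries. Endothelial markers stayed at or below 0.720 FPKM in sum in every library, and oocyte markers summed to 3.0 to 3.68 FPKM in cyclophosphamide and 0.624 to 0.908 FPKM in untreated cells. Of 6 oocyte markers 2 were tested and both rose, Gdf9 by 2.32 ± 0.15 and Ooep by 0.99 ± 0.29. No marker was without reads in all libraries. The part that these shifts have in the values below was not tested. In bulk RNA, fewer cells of a type and less RNA per cell cannot be told apart.

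Selenocysteine is encoded by UGA, which elsewhere ends translation. An RNA hairpin in the 3′ untranslated region, the SECIS element, recruits SECISBP2 and the elongation factor EEFSEC, which deliver selenocysteine-tRNA to the UGA instead. When selenium or this machinery is short, the UGA can be read as a stop, and some selenoprotein mRNAs are then broken down by nonsense-mediated decay, while others are known to be spared. In granulosa cells, selenoproteins are known chiefly as antioxidant enzymes of the growing follicle.

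The codon that defines the class is shown for the genes on which the results turn. Each stretch is read from the GENCODE M21 transcript on GRCm38, in DNA letters from 5′ to 3′, with 12 bases on each side and the selenocysteine codon in capitals.
Gpx4, codon at chr10:80054737-80054739, plus strand: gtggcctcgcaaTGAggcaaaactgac
Gpx1, codon at chr9:108339451-108339453, plus strand: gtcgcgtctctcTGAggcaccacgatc
Gpx3, codon at chr11:54907256-54907258, plus strand: gtagccagctacTGAggtctgacagac
Selenow, codon at chr7:15920464-15920466, minus strand: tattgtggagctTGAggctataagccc
Selenot, codon at chr3:58585238-58585240, plus strand: atttgtgtatccTGAgggtaccggcgg
Selenom, codon at chr11:3516273-3516275, plus strand: acctgtggaggaTGAcagttgaatcgc
Selenop, codon at chr15:3274848-3274850, plus strand: cttcaagccagcTGAtacttgtgtctt
Sephs2, codon at chr7:127273731-127273733, minus strand: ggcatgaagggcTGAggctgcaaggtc
Txnrd1, codon at chr10:82896037-82896039, plus strand: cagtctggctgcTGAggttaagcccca
In Gpx4 this codon is number 73 of 197 and lies in exon 3 of 7, within a gene that spans 80047166 to 80056439 of chromosome 10 on the plus strand. In Txnrd1 it is number 498 of 499, the last before a final glycine codon and the stop, in exon 14 of 14. Selenop has 10 such codons, the first of them number 59 of 380, and is the only member besides Dio2, with 2, that has more than 1.

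Most selenoprotein mRNAs fell with cyclophosphamide, Txnrd1 and Sephs2 rose, and the other machinery genes had calls in both directions. Of the 32 genes 29 passed the filter on low reads, and of these 5 rose and 17 fell. Across all genes tested 33.3% rose and 36.0% fell, which makes 69.3% called in either direction (limma, Benjamini-Hochberg adjusted p under 0.05). The median log2 fold change was -0.37 over the 29 and -0.02 over all genes tested. In each of the 22 called genes the libraries of the groups did not overlap, 5 higher and 17 lower, as in 35.4% (higher) and 38.0% (lower) of all genes tested. Gpx2, Dio1 and Dio3 had no read in any library, which at 3 reads allows a level of up to 0.0932 FPKM.

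**Figure D1:**
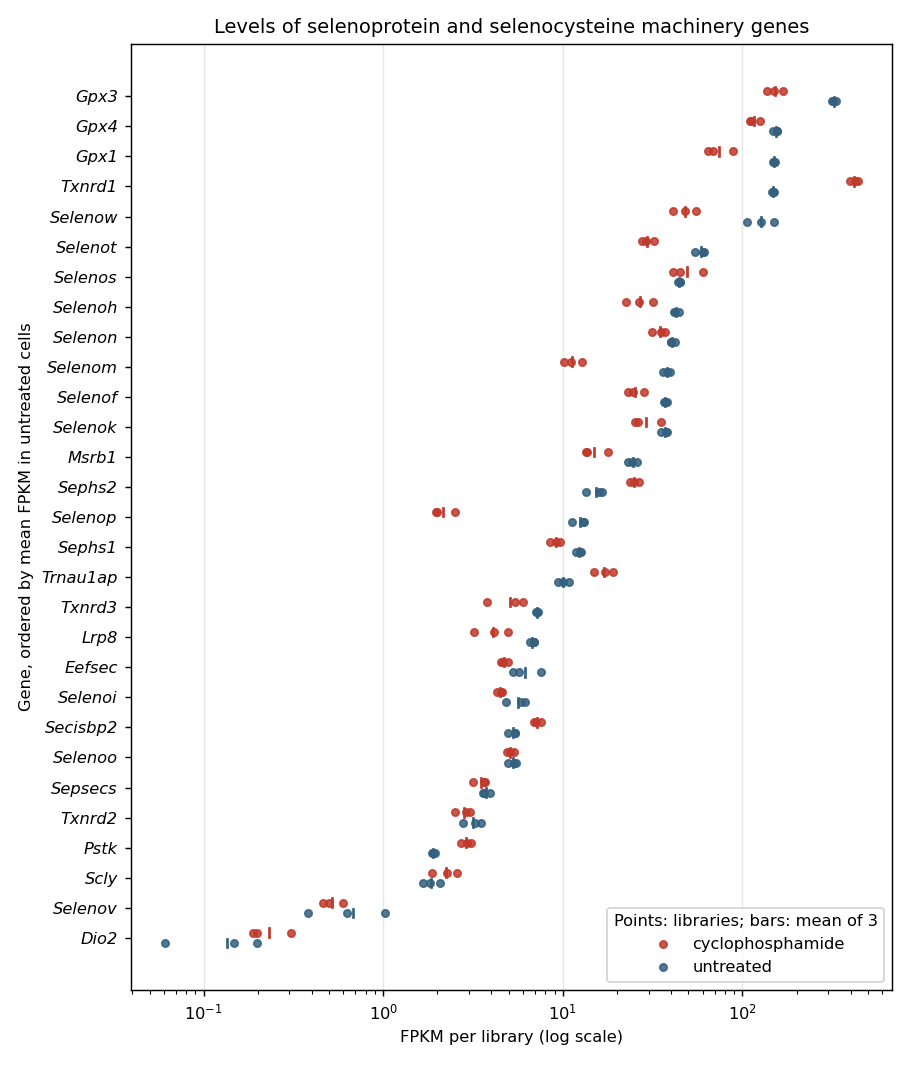
FPKM (log scale) of the 29 tested genes in each library, ordered by mean level in untreated cells, with cyclophosphamide libraries in red above untreated libraries in blue and a bar at each mean of 3. Txnrd1 moves to 395 to 439 FPKM in cyclophosphamide cells against 145 to 151 FPKM in untreated cells, while Gpx3, Gpx1, Selenow, Selenom and Selenop lie to the left of their untreated values.

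The glutathione peroxidases fell, Gpx4 the least of the 3 that were detected. Gpx4, which reduces lipid hydroperoxides within membranes, measured 126, 111 and 109.8 FPKM in cyclophosphamide cells, against 147, 156 and 156 FPKM in untreated cells. The groups did not overlap, and the log2 fold change was -0.41 ± 0.08 (SE), with a limma adjusted p of 0.0020. Gpx1, the cytosolic peroxidase that removes hydrogen peroxide, had 88.1, 64.6 and 68.5 FPKM in cyclophosphamide cells and 148, 153 and 150.2 FPKM in untreated cells. Its fold change was -1.04 ± 0.11 on the log2 scale (limma, adjusted p = 9.5e-05), and the highest cyclophosphamide library was replicate 1. Gpx3, the secreted peroxidase, was the most abundant member in untreated cells, at 317, 316 and 332 FPKM, and had 168, 138 and 149 FPKM in cyclophosphamide cells. It fell by 1.09 on the log2 scale (SE 0.09, adjusted p = 2.6e-05 in limma). The 3 genes thus differed in size: the log2 fold change of Gpx1 lay 0.63 ± 0.08 below that of Gpx4 and the one of Gpx3 0.68 ± 0.07 below it, and both differences passed the test (limma on the difference from Gpx4 within each library, adjusted p = 6.3e-05 and 1.5e-05). The ratio of Gpx4 to Gpx1 was 1.42, 1.72 and 1.60 in cyclophosphamide libraries, against 0.997, 1.02 and 1.04 in untreated libraries.

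Among the thioredoxin reductases, which keep thioredoxin reduced with electrons from NADPH, only the cytosolic form rose. Txnrd1 measured 439, 423 and 395 FPKM in cyclophosphamide cells, against 145, 151 and 148 FPKM in untreated cells. This 2.83-fold rise (log2 fold change 1.50 ± 0.08, limma adjusted p = 3.2e-06) was the largest increase among the 29 genes. Txnrd1 ranked 1 in level among the members in cyclophosphamide cells and 4 in untreated cells, on 153290 and 53105 reads. Txnrd2, the mitochondrial reductase, had 2.51, 2.89 and 3.03 FPKM in cyclophosphamide cells and 2.77, 3.50 and 3.24 FPKM in untreated cells, and these overlapped (log2 fold change -0.17 ± 0.13, limma adjusted p = 0.29). Txnrd3, a thioredoxin and glutathione reductase known from testis, fell, with 3.79, 6.0 and 5.39 FPKM in cyclophosphamide cells and 7.12, 7.29 and 7.20 FPKM in untreated cells (log2 fold change -0.53 ± 0.16, limma adjusted p = 0.017). Cyclophosphamide replicate 1 was the lowest, and without it the fall measured -0.34 ± 0.08.

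The pool of selenoprotein mRNA changed in make-up more than in size. Summed over the 24 genes it was 1165, 1033 and 1022 FPKM in cyclophosphamide libraries and 1233, 1296 and 1288 FPKM in untreated libraries. Txnrd1 held 37.6%, 41.0% and 38.7% of it in cyclophosphamide libraries, against 11.8%, 11.6% and 11.5% in untreated libraries. Gpx3 held 13.3% to 14.6% in cyclophosphamide and 24.4% to 25.8% in untreated libraries. The share of Gpx4 differed less, at 10.7% to 10.8% in cyclophosphamide and 11.9% to 12.1% in untreated libraries. Without Txnrd1 the sum was 654.5 ± 63.1 FPKM in cyclophosphamide and 1125 ± 31.9 FPKM in untreated cells (SD, n = 3 each), and Gpx4 held 17.3% to 18.3% and 13.5% to 13.7% of that remainder. These sums describe levels per length and carry no test.

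**Figure D2:**
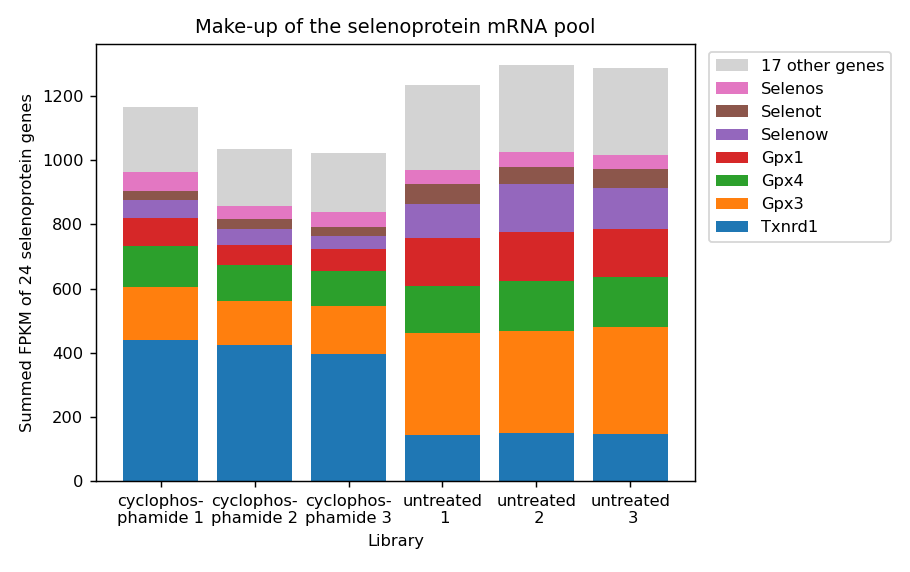
Summed FPKM of the 24 selenoprotein genes in each library, stacked by gene, with cyclophosphamide libraries on the left and untreated libraries on the right. Txnrd1, the lowest block, makes up 37.6% to 41.0% of the bar in cyclophosphamide libraries and 11.5% to 11.8% in untreated libraries, while the Gpx4 block keeps 10.7% to 12.1%.

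Of 5 other redox selenoproteins outside the endoplasmic reticulum, 3 fell and 2 were not called, beside 36.0% lower over all genes tested. Selenow, a small cytosolic protein with a thioredoxin fold, had 54.8, 47.7 and 41.1 FPKM in cyclophosphamide cells and 106, 149 and 126 FPKM in untreated cells. Its log2 fold change of -1.40 ± 0.14 (limma, adjusted p = 6.2e-05) was the largest fall in this class, although the untreated libraries were themselves spread. Msrb1, which repairs oxidised methionine, had a log2 fold change of -0.71 ± 0.12 (adjusted p = 0.00077 in limma), with 13.4 to 17.9 FPKM in cyclophosphamide and 23.0 to 25.9 FPKM in untreated cells. Selenoh, a nuclear oxidoreductase, fell by 0.67 (SE 0.11, limma adjusted p = 0.0010), with 22.6 to 31.8 FPKM in cyclophosphamide and 41.8 to 44.1 FPKM in untreated cells. The mitochondrial Selenoo had 4.87, 5.37 and 5.09 FPKM in cyclophosphamide cells and 5.46, 4.93 and 5.36 FPKM in untreated cells, a difference of -0.04 ± 0.09 on the log2 scale (adjusted p = 0.71 in limma). Selenov, best known from testis, held 39 reads in cyclophosphamide and 50 reads in untreated libraries, too few to show a difference of this size (log2 fold change -0.25 ± 0.30).

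The 7 selenoproteins of the endoplasmic reticulum membrane and lumen ranged widely, and 6 of them fell, beside 36.0% of all genes tested. Selenom, a thioredoxin-like protein of the lumen, had 12.7, 11.0 and 10.1 FPKM in cyclophosphamide cells, against 36.2, 39.6 and 38.1 FPKM in untreated cells. It had a log2 fold change of -1.75 ± 0.09 (adjusted p = 2.5e-06 in limma). Selenot, a membrane oxidoreductase, measured 27.7, 31.97 and 28.9 FPKM in cyclophosphamide cells and 60.7, 54.7 and 60.3 FPKM in untreated cells (log2 fold change -0.99 ± 0.08, limma adjusted p = 1.5e-05). Selenof, a partner of the enzymes that check glycoprotein folding, fell by 0.56 (SE 0.08, limma adjusted p = 0.00041), with 23.0 to 28.1 FPKM in cyclophosphamide and 36.4 to 37.96 FPKM in untreated cells. Smaller falls were found for Selenok at -0.37 ± 0.12, Selenoi at -0.31 ± 0.11 and Selenon at -0.23 ± 0.07, which serve protein palmitoylation, phosphatidylethanolamine synthesis and calcium handling. Their levels were 25.4 to 35.2, 4.32 to 4.59 and 31.4 to 36.95 FPKM in cyclophosphamide cells, against 35.4 to 38.1, 4.85 to 6.13 and 39.8 to 42.0 FPKM in untreated cells. These calls were narrow: Selenok was lost without any of 4 libraries (cyclophosphamide replicate 2 or 3, untreated replicate 2 or 3), where its adjusted p was 0.067 to 0.087, Selenoi without any library except untreated replicate 2 (0.050 to 0.12) and Selenon without untreated replicate 3 (0.083).

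Selenos was the only gene of that compartment that was not called, and its difference from the others there was not tested. It encodes a membrane protein that joins misfolded proteins to the ATPase VCP for degradation, and it had 60.6, 41.1 and 45.2 FPKM in cyclophosphamide cells and 44.9, 44.7 and 43.5 FPKM in untreated cells. Cyclophosphamide replicate 1 alone was high, and the groups overlapped (log2 fold change 0.12 ± 0.13, limma adjusted p = 0.43). Without that library the log2 fold change was -0.04 ± 0.06.

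Genes that carry selenium between and into cells fell, and the gene that recovers it was not called. Selenop encodes the secreted carrier that delivers selenium in its many selenocysteines, and it lies on chromosome 15 from 3268547 to 3280508 (GRCm38). It had 2.52, 1.96 and 2.00 FPKM in cyclophosphamide cells, against 13.0, 11.25 and 13.1 FPKM in untreated cells. Its log2 fold change of -2.48 ± 0.12 (limma, adjusted p = 2.1e-06), a 5.57-fold lower level, was the largest change among the 29 genes. Lrp8, the receptor that takes up SELENOP, had 3.21, 4.94 and 4.135 FPKM in cyclophosphamide cells and 6.91, 6.87 and 6.53 FPKM in untreated cells (log2 fold change -0.73 ± 0.15, limma adjusted p = 0.0026). Scly, the lyase that frees selenium from selenocysteine, overlapped between the groups at 1.87, 2.58 and 2.27 FPKM in cyclophosphamide cells and 1.67, 2.08 and 1.82 FPKM in untreated cells (log2 fold change 0.25 ± 0.16, limma adjusted p = 0.18). Selenop shares 439 of its 2842 exon bases with Ccdc152 on the other strand, and whether the counting used strand is not stated in the notes.

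The machinery that makes and inserts selenocysteine had 4 of 7 genes higher and 2 lower. Over all genes tested 33.3% rose and 36.0% fell. The 2 lower genes were Sephs1 and Eefsec, and the call of Eefsec was narrow. Sephs2, which makes the selenium donor selenophosphate, measured 26.5, 23.7 and 24.9 FPKM in cyclophosphamide cells, against 13.5, 16.45 and 15.8 FPKM in untreated cells. Its log2 fold change was 0.72 ± 0.09 (limma, adjusted p = 0.00017), while its relative Sephs1, which does not make selenophosphate, fell by 0.43 (SE 0.07, limma adjusted p = 0.0011), with 8.51 to 9.64 FPKM in cyclophosphamide and 11.8 to 12.6 FPKM in untreated cells. Pstk, the kinase that prepares serine on the selenocysteine tRNA, had 2.72, 3.06 and 2.91 FPKM in cyclophosphamide cells and 1.89, 1.95 and 1.86 FPKM in untreated cells, a rise of 0.58 ± 0.11 (limma, adjusted p = 0.0019). Sepsecs, which completes the amino acid on that tRNA, was not called, at -0.09 ± 0.11 (limma, adjusted p = 0.48).

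At the insertion step the binding factors rose and the elongation factor did not. Trnau1ap, which encodes a protein bound to the selenocysteine tRNA, had 19.0, 14.9 and 17.2 FPKM in cyclophosphamide cells and 9.35, 10.8 and 9.98 FPKM in untreated cells. Its log2 fold change was 0.75 ± 0.10 (limma, adjusted p = 0.00028). Secisbp2, which reads the SECIS hairpin, measured 7.51, 7.04 and 6.91 FPKM in cyclophosphamide cells and 4.95, 5.41 and 5.41 FPKM in untreated cells, a rise of 0.44 ± 0.08 (limma, adjusted p = 0.0018). Eefsec, the elongation factor, had 4.62, 4.94 and 4.51 FPKM in cyclophosphamide cells and 5.68, 7.57 and 5.28 FPKM in untreated cells. Untreated replicate 2 was the highest of these, and the fall of 0.37 ± 0.14 (limma, adjusted p = 0.040) was lost without any library except untreated replicate 3, with adjusted p 0.052 to 0.10, and without untreated replicate 2 it measured -0.22. Exons of genes on the other strand cover 58.8% of the exon bases of Pstk (Ikzf5), 36.4% of those of Sephs2 and 26.7% of those of Selenoo (Tubgcp6).

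**Figure D3:**
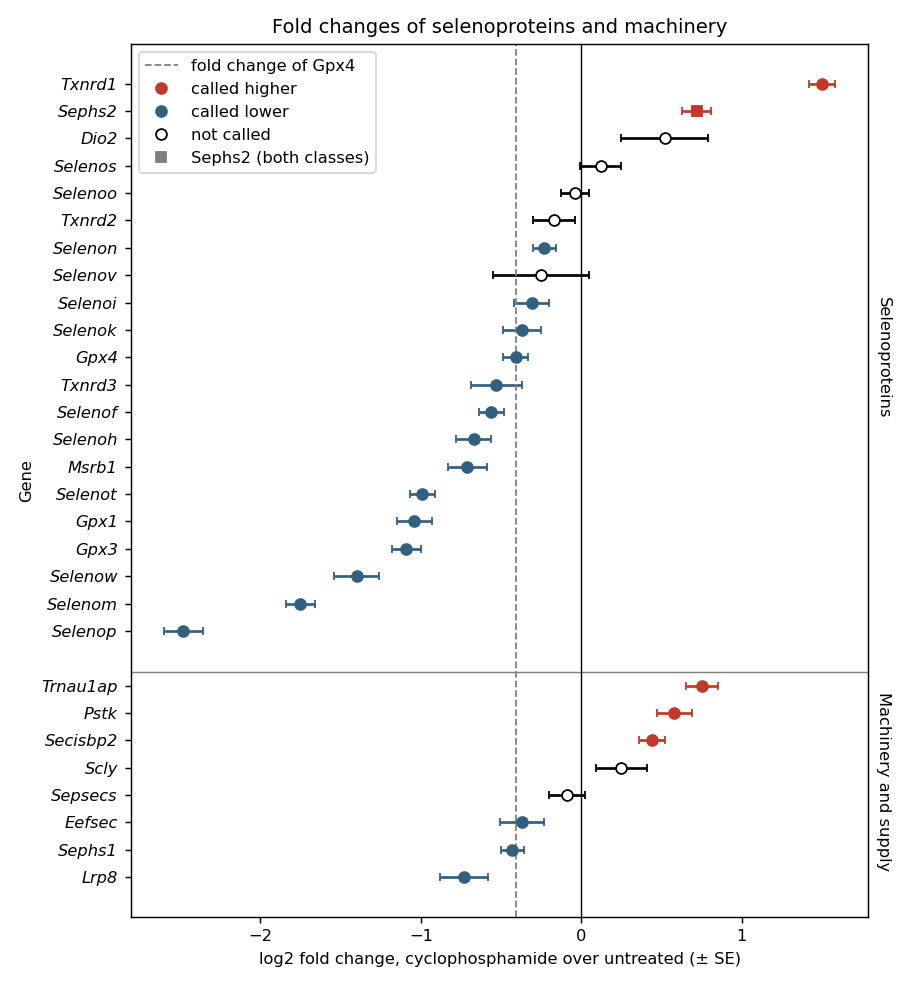
The log2 fold change of each tested gene (cyclophosphamide over untreated, with SE), selenoproteins above and the other machinery and supply genes below. The dashed line marks Gpx4 at -0.41, with Txnrd1 at 1.50 and Selenop at -2.48 at the ends and Trnau1ap, Pstk and Secisbp2 right of 0.

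Set against Gpx4, the selenoproteins fell on both sides of it, while no machinery or supply gene without the codon was called below it over all 6 libraries. The comparison takes the difference from Gpx4 within each library, so a common scaling of a library cancels apart from the pseudocount. Of the 20 other selenoproteins tested, 5 had a fold change above that of Gpx4, 8 below it and 7 did not pass the test. Of the 8 machinery and supply genes without the codon, 4 lay above Gpx4 and 0 below, also 0 at an unadjusted p under 0.05. Without cyclophosphamide replicate 2, Lrp8 passed the test below Gpx4, at -0.49 (adjusted p = 0.029). Of all genes tested against Gpx4, 51.1% lay above it and 21.2% below, 72.2% together. Beside these shares, 4 above and 0 below among 8 genes are too few to set the machinery apart from other genes. All these differences share the same Gpx4 values, so they are not independent of each other.

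The 5 selenoproteins above Gpx4 were Txnrd1, Sephs2, Selenos, Selenoo and Dio2. The difference was 1.91 ± 0.07 for Txnrd1 and 1.12 ± 0.08 for Sephs2 on the log2 scale (limma, adjusted p = 3.4e-08 and 1.8e-06). For Selenos it was 0.53 ± 0.10 (limma, adjusted p = 0.00083) and for Selenoo 0.37 ± 0.13 (0.026), both of which had no called change of their own. Selenoo lost this call without any of 4 libraries (cyclophosphamide replicate 2 or 3, untreated replicate 2 or 3), with an adjusted p of 0.073 to 0.098. Dio2, the deiodinase that activates thyroid hormone, had 0.188, 0.307 and 0.199 FPKM in cyclophosphamide cells and 0.147, 0.197 and 0.0610 FPKM in untreated cells. It held 70 reads in cyclophosphamide and 40 reads in untreated libraries and was not called on its own (log2 fold change 0.52 ± 0.27, limma adjusted p = 0.12). Its difference from Gpx4 of 0.93 ± 0.29 was lost without cyclophosphamide replicate 2 (adjusted p = 0.062) or untreated replicate 3 (0.063). With no filter on low values the Dio2 difference was lost too (0.081). The 8 below Gpx4 were Selenop (-2.07 ± 0.12), Selenom (-1.34 ± 0.07), Selenow (-1.0 ± 0.11), Gpx3, Gpx1, Selenot (-0.58 ± 0.10), Msrb1 (-0.30 ± 0.09) and Selenoh (-0.27 ± 0.09). Selenoh lost this call without cyclophosphamide replicate 2, untreated replicate 1 or untreated replicate 2 (adjusted p 0.060 to 0.077), and Msrb1 without untreated replicate 1 or 2 (0.050 to 0.051). Selenoh also lost it with no filter on low values (0.051). Selenof, Selenoi, Selenok, Selenon, Selenov, Txnrd2 and Txnrd3 did not pass, with differences of -0.15 ± 0.07 for Selenof to 0.24 ± 0.16 for Txnrd2. Without cyclophosphamide replicate 1, Selenon (0.30) and Txnrd2 (0.38), and of the machinery Sepsecs (0.45), passed above Gpx4. Sepsecs also passed with a pseudocount of 1, at 0.33 (limma, adjusted p = 0.039). Among the machinery and supply genes without the codon, Trnau1ap (1.16 ± 0.09), Pstk (0.99 ± 0.15), Secisbp2 (0.85 ± 0.10) and Scly (0.66 ± 0.19) lay above Gpx4.

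Reads of Gpx4 could be split with a pseudogene. The table lists Gpx4-ps2, whose 4545 reads over all libraries equal 19.2% of those of Gpx4. It measured 51.5, 43.2 and 43.5 FPKM in cyclophosphamide and 67.0, 64.3 and 66.3 FPKM in untreated cells, which is -0.52 ± 0.08 on the log2 scale (adjusted p = 0.000603 in limma), so it moved in the same direction as Gpx4.

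In mice short of selenium or of selenocysteine tRNA, some selenoproteins are known to be lost early (Gpx1, Gpx3, Selenow, Selenoh and Msrb1) and others to be kept (Gpx4, Txnrd1, Txnrd2 and Selenof). In the first list 5 of 5 fell, with a median log2 fold change of -1.04 and a range of -1.40 to -0.67, and 5 of 5 lay below Gpx4, beside 36.0% lower and 21.2% below Gpx4 over all genes tested. Selenop, Selenom and Selenot, on neither list, also fell and lay below Gpx4. In the second list 2 of 4 fell, 1 rose and 1 was not called, with a median of -0.29. The lists were written with results of these data known, and the difference between them carries no test.

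The genes were also described by the place of the selenocysteine codon. Nonsense-mediated decay is known to act on a stop codon read more than about 50 bases upstream of the last exon junction, so the distance from the first selenocysteine codon to that junction was taken from the same transcripts. In 14 selenoproteins the codon lies further upstream than 50 bases, and 12 of these were tested. Of these 12, 10 fell (36.0% of all genes tested did) and none had a positive value. Their log2 fold changes were -2.48 for Selenop to -0.17 for Txnrd2, with a median of -0.83. Below Gpx4 lay 7 of them, beside 21.2% of all genes tested. The other 10 have the codon closer, in the last exon or in an mRNA without junctions. Of the 9 tested 4 fell and 2 rose, beside 36.0% and 33.3% of all genes tested. Their median was -0.04 and their range -0.71 to 1.50. Txnrd1, Txnrd3, Selenoi, Selenos, Selenoo and Dio2 have it in the last exon, Selenok 5 bases and Msrb1 34 bases before the last junction, and Sephs2 has a single exon. The nearest genes beyond the dividing value were Selenof at 78 bases and Txnrd2 at 83 bases. The ranges overlap: Gpx4, at 342 bases, and Selenon, at 216 bases, fell less than Msrb1. Distance was looked up after the fold changes were known and carries no test.

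**Figure D4:**
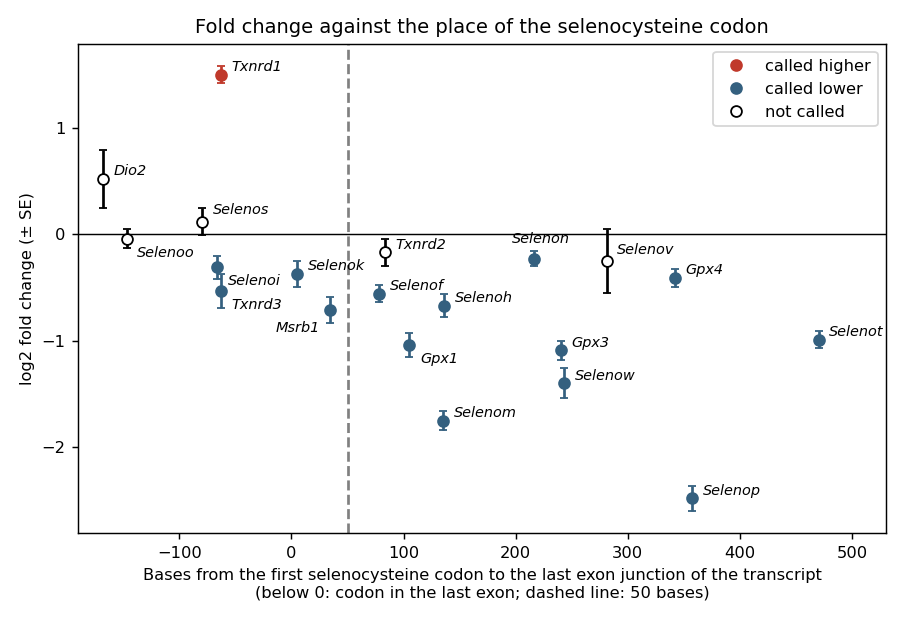
Log2 fold change (with SE) of 20 tested selenoproteins against the number of bases between the first selenocysteine codon and the last exon junction, with Sephs2 left out because its mRNA has no junction. All 12 genes right of the dashed line at 50 bases have values of -0.17 or less, while those left of it run up to 1.50 for Txnrd1.

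Of 7 relatives or functional counterparts of the selenoproteins, which carry cysteine in place of selenocysteine, 5 were tested. Of these 4 fell, beside 36.0% of all genes tested, and the median log2 fold change was -0.68. Msrb3, a methionine sulfoxide reductase of the endoplasmic reticulum, had 6.75, 6.40 and 5.73 FPKM in cyclophosphamide cells and 21.9, 21.9 and 23.1 FPKM in untreated cells (log2 fold change -1.81 ± 0.08, limma adjusted p = 1.2e-06). Msra, a counterpart in function that repairs the other form of oxidised methionine, fell by 1.89 (SE 0.24, limma adjusted p = 0.00021). Its levels were low, at 0.195 to 0.453 FPKM in cyclophosphamide and 1.28 to 1.41 FPKM in untreated cells. Gpx7 and Gpx8, peroxidases of the endoplasmic reticulum, had log2 fold changes of -0.68 ± 0.10 and -0.52 ± 0.06 and were both called. Msrb2, the mitochondrial form, was not called at -0.14 ± 0.12. The list of these relatives was written with earlier results of these data known, so its counts are a description.

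Of 11 accessory genes of selenocysteine use and selenium metabolism, all tested, 8 rose and 1 fell, beside 33.3% higher and 36.0% lower over all genes tested. Their median log2 fold change was 0.63, and Eif4a3 (0.08 ± 0.08) and Lrp2 (-0.17 ± 0.21) were not called. Xpo1, a nuclear export receptor, had 67.2, 54.7 and 64.3 FPKM in cyclophosphamide cells and 21.8, 18.4 and 20.4 FPKM in untreated cells (log2 fold change 1.61 ± 0.10, limma adjusted p = 4.8e-06). Cth, the lyase that makes cysteine by transsulfuration, rose by 1.63 ± 0.10 and Sars, the enzyme that loads serine on tRNA, the selenocysteine tRNA included, by 1.07 ± 0.07. Lrp1, a large endocytic receptor related to LRP8, fell by 1.05 (SE 0.07, limma adjusted p = 7.2e-06). The others that rose were Trit1, Rpl30, Alkbh8, Ncl and Secisbp2l, with log2 fold changes of 0.57 to 0.88. These genes serve other processes too. Their list was written with earlier results of these data known, so its counts are a description and carry no test.

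Partners and substrates of the selenoproteins included calls in both directions. Of 13 partner genes 12 were tested, with 3 higher, 3 lower and a median log2 fold change of -0.02, beside 33.3% higher and 36.0% lower over all genes tested, so the counts show nothing particular to partners. Gsr, which regenerates the glutathione that the peroxidases use, measured 93.4, 90.9 and 87.8 FPKM in cyclophosphamide cells and 37.9, 38.5 and 38.7 FPKM in untreated cells (log2 fold change 1.24 ± 0.06, limma adjusted p = 1.6e-06). Txn1, the substrate of TXNRD1, was not called at 0.23 ± 0.12 (adjusted p = 0.12 in limma), while Txn2, its mitochondrial counterpart, rose by 0.90 ± 0.07 (2.1e-05). Rnf5, a ubiquitin ligase of the endoplasmic reticulum, fell by 1.02 (SE 0.13), and Ryr2, a calcium channel, fell by 1.17 (SE 0.21) at levels of at most 0.266 FPKM. Of the selenium-binding proteins, which hold no selenocysteine, Selenbp2 rose by 1.83 ± 0.26 on 85 reads in cyclophosphamide and 15 reads in untreated libraries, and Selenbp1 fell by 0.77 (SE 0.21) on 108 and 188 reads.

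Promoters were searched for a pair of stress motifs on both strands, in windows of 250 bases before to 50 bases after each start (RefSeq, GRCm38.p6). The core of the antioxidant response element, TGACNNNGC, was found in 3 of the 41 windows that match 31 of the 32 genes, those of Txnrd1, Selenok and Lrp8, against 12.4% of 32851 windows. The Txnrd1 window, chromosome 10 from 82858956 to 82859255 on the plus strand, is shown because this gene rose most, with the match on the other strand in capitals.
Txnrd1 promoter: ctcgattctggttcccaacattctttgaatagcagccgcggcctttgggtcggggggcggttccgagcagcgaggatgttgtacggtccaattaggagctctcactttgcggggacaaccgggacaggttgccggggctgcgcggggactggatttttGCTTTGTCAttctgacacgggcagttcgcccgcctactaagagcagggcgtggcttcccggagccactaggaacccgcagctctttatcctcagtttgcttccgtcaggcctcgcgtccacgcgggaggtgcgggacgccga
The core of the C/EBP-ATF response element, TGATGNAA, was found in 1 of the 41 windows, in Sephs1, against 3.97% of all windows. Of the genes with a match, Txnrd1 rose, while Selenok, Lrp8 and Sephs1 fell. A match is a description of the letters and not of binding.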

How the data were processed

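The authors deposited 1 table of FPKM per gene, although its name speaks of raw counts. The submitters' processing notes list HISAT2 2.0.5 and CASAVA. Which program counted the reads, whether it used strand and which annotation it used are not given there. The notes name GRCm39, but the deposited coordinates of 98.33% of 54495 shared gene IDs, and of all 32 members, equal GENCODE M21 on GRCm38, which is the build used for every position.

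FPKM times gene length gave whole reads (within 0.01 of a read) for 100% of values in every library. Genes with at least 10 reads in 3 libraries and 15 in all were kept (14755 genes). Columns were matched to the 3 cyclophosphamide and 3 untreated samples by name. Differences were tested on log2(FPKM + 0.1) with limma 3.58.1 (R 4.3.3, trend, 6 libraries, two-sided) and Benjamini-Hochberg adjustment over all genes tested, with calls at an adjusted p below 0.05. The pseudocount of 0.1 makes fold changes of low genes too small, and ± after one is its SE. Each gene minus Gpx4 in the same library was tested likewise. The fits were tested on simulated data. A floor of 3 reads covers counting error only.

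Members and lists were chosen with earlier results of these data known. All members are named, and of the other pathway lists those called with a change of at least 2-fold; other genes, markers included, were chosen for naming after their values were seen. The main fits did not pair samples by replicate number. Whether the numbers mark a shared culture or batch cannot be settled with 3 libraries per group. Other scalings, filters, pseudocounts, limma-voom on the recovered reads, a replicate block and leaving out each library were tried.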

Additional observations from a re-analysis of the deposited data

How the results depend on the processing

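Of 573 combinations of a value and an alternative setting, 548 were kept, 22 kept the direction and lost the call, and 3 reversed. A fold change was kept if it held its direction and side of the threshold. Counts of genes are among the 548 and have no direction. They were judged only on staying within a set ratio of the main count. The reversals were in genes never called: Selenoo measured 0.01 with scaling to total reads, Selenos -0.04 without cyclophosphamide replicate 1 and Selenov 0.06 without untreated replicate 3. Over all omissions of 1 library Selenos ranged over -0.04 to 0.24 and Selenov over -0.55 to 0.06. The calls of a gene's own fold change that were lost were of Eefsec, Selenoi, Selenok and Selenon. With no filter on low values 8 members lay above Gpx4 and 7 below it (Dio2 and Selenoh lost). Members called higher numbered 5 in every setting and members called lower 14 to 17. Leaving out 1 library gave 14 to 15 lower, 7 to 12 above Gpx4, 6 to 8 below it, a Gpx4 log2 fold change of -0.47 to -0.37 and 9326 to 10109 genes called. Gpx4 measured -0.49 with upper-quartile scaling and -0.36 with scaling to total reads. limma-voom on the recovered reads called 10404 genes and the same number of members, and was not run for the difference from Gpx4. Same-numbered samples did not deviate together (correlations -0.077, 0.007 and -0.023), and no sample correlated best with its own number. With a replicate block 9915 genes were called, 5 members higher and 17 lower, 8 above Gpx4 (Selenoo lost) and 8 below, and Gpx4 measured -0.41. Depth limits Dio2 and Selenov, with 40 and 50 reads in untreated libraries.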

Other observations

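Among all genes tested, those whose levels followed Gpx4 most closely over the 6 libraries were Pgk1, a glycolytic kinase, Hmox2, the constitutive haem oxygenase, Rpn2, a subunit of the oligosaccharyltransferase, Eif1ax, a translation initiation factor, and Ppp1ca, a phosphatase subunit. Likeness was the mean absolute distance between log2 levels centred on each gene's mean, and it was 0.0215 for Pgk1 and 0.0241 for Ppp1ca. None of the members is among these 5 genes.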
